A study of Mus musculus with 8 samples.

Results

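The 8 genes Dcn, Bgn, Lum, Fmod, Ogn, Prelp, Aspn and Podn encode small leucine-rich proteoglycans, and their transcripts were followed in brown adipose tissue (BAT) of mice lacking the lipase ATGL in thermogenic adipocytes. The members were taken by name as a family, with no threshold on measured values, and matched by symbol to 8 of the 31053 Ensembl genes of the count table. BAT of 4 WT mice was compared with BAT of 4 Ucp1Δ/Δ mice, which the labels call ATGLKO. In the Ucp1Δ/Δ mice, floxed alleles of Pnpla2, the gene of ATGL, were removed by a Cre recombinase expressed from Ucp1, so that the deletion was aimed at UCP1-positive adipocytes while the other cells of the tissue kept the gene. All mice were on the strain C57BL6/J, were males, and were 10 weeks old per the labels, whereas the study's text gives a younger age. Whether the WT mice carried the floxed alleles was not given in the sources used here.

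Small leucine-rich proteoglycans are secreted core proteins built of leucine-rich repeats that carry chondroitin or dermatan sulfate chains (decorin and biglycan), keratan sulfate chains (lumican and fibromodulin) or few chains. They bind the surface of collagen fibrils and set their diameter and spacing, and they also hold growth factors such as TGF-β in the matrix and bind receptors on the cell surface. In adipose tissue they are made mostly by fibroblasts and stromal progenitors, and biglycan is in addition known as a ligand of Toll-like receptors on macrophages.

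Each mouse gave between 2017697 and 3115956 counts, of which 38.4% to 45.6% came from mitochondrially encoded genes, and 3 counts in 1 mouse corresponded to 0.933 to 1.53 CPM (counts relative to the library total, scaled by the trimmed mean of M-values, TMM). Of the 31053 genes, 8930 passed the filter on low counts and were tested with edgeR's quasi-likelihood test. Pnpla2, the targeted gene, fell from 2913 ± 191 to 474 ± 59.2 CPM (SD, n = 4 each), with a log2 fold change (log2FC) of -2.62 (SE 0.17, edgeR adjusted p = 1.97e-07). The labels give the cell type as stromal vascular fraction and the tissue as BAT. Adipocyte markers were abundant in all mice, with Ucp1 between 1291 and 4110 CPM, which goes against a fraction freed of adipocytes, so that the samples are called BAT here. In such bulk samples more cells of a type and more RNA per cell cannot be told apart. The samples of 1 genotype are taken as separate mice from their titles, and the spread between them may in part be technical.

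In the GRCm38/mm10 build most members sit in clusters of related genes. Dcn (decorin, chr10:97479609-97518143, plus strand) and Lum (lumican, chr10:97565128-97572703, plus strand) are followed by Kera and Epyc. Aspn (asporin, chr13:49544443-49567565, plus strand) and Ogn (osteoglycin, chr13:49608046-49624501, plus strand) enclose Omd, with Ecm2 ahead of them. Prelp (chr1:133910304-133921414, minus strand) lies next to Optc and before Fmod (fibromodulin, chr1:134037254-134048277, plus strand). Bgn (biglycan, chrX:73483602-73495933, plus strand) and Podn (podocan, chr4:108014791-108096445, minus strand) stand outside these clusters. The exons of the members shared no stretch of 75 bases, the read length, with another gene on their own strand. On the opposite strand, 350 exonic bases of Prelp are covered by Gm15851 and 7 of Aspn by Cenpp, and whether the counting used strand is not given in the sources used here. Gm15851 had 0 counts in all 8 mice, and Cenpp had 3 counts over the WT and 8 over the Ucp1Δ/Δ mice.

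The bases from -200 to -21 relative to the RefSeq start (GRCm38.p6) are printed for Bgn and Prelp, which passed the test, and for Aspn and Ogn. Aspn and Ogn did not pass (edgeR adjusted p = 0.0511 and 0.0878), but their log2FC of 0.88 and 0.74 was also above 0. The windows therefore do not set members that rose against members that stayed level. The windows are 5′ to 3′ on the strand of the gene, at chrX:73483401-73483580 (Bgn, plus), chr1:133921422-133921601 (Prelp, minus), chr13:49544243-49544422 (Aspn, plus) and chr13:49607815-49607994 (Ogn, plus). Capitals mark matches on either strand to the TATA box motif, spelled TATAAA, to the AP-1 motif, spelled TGANTCA, to the SMAD-binding motif, spelled CAGAC, or to the CCAAT box, and no matches overlapped.
Bgn: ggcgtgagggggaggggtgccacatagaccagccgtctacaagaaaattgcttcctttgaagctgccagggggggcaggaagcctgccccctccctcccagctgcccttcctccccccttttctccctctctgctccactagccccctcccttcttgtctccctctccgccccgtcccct
Prelp: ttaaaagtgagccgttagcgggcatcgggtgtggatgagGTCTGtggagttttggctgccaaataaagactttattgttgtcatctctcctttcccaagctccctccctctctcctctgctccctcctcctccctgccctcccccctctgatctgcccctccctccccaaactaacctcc
Aspn: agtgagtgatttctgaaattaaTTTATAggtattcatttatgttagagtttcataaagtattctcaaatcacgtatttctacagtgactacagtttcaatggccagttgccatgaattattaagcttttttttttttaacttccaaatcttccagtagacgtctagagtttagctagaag
Ogn: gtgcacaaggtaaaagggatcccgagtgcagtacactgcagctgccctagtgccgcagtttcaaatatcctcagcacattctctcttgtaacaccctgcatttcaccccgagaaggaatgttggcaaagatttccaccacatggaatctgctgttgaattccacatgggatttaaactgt
The Bgn and Ogn windows held none of the 4 motifs. The Prelp window held the SMAD-binding motif on the opposite strand at -161, and the Aspn window held the TATA box motif on the opposite strand at -178. These motifs are common, since 32.6% of the 32851 mouse windows of the same length held the SMAD-binding motif, 27.5% the CCAAT box, 9.34% the TATA box motif and 5.06% the AP-1 motif. The 4 windows differed in base composition, with 64.4% G or C in Bgn, 55.6% in Prelp, 47.2% in Ogn and 30.6% in Aspn, beside a median of 52.8% over all windows. The matches describe letters in these windows and are neither shown to be sites nor linked to the changes. The Fmod window held the SMAD-binding motif 2 times, at -195 and -148, and both windows of Podn held none of the motifs, while Dcn and Lum had no entry in the RefSeq promoter table.

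Transcripts of 4 of the 8 proteoglycans, Dcn, Bgn, Lum and Prelp, were higher in BAT of Ucp1Δ/Δ mice, with log2FC between 1.27 and 2.23, and none was lower (edgeR, Benjamini-Hochberg adjusted p below 0.05). Over all tested genes 13.3% were called higher and 7.63% lower. At an unadjusted p below 0.05, 6 members were higher and 0 lower in edgeR, and DESeq2 called 4 higher and 0 lower, limma voom 5 and 0. Aspn, Ogn and Podn were tested and did not pass, and Fmod had too few counts to be tested. The summed level of the 8 members rose from 355 ± 40.1 CPM in WT to 896 ± 133 CPM in Ucp1Δ/Δ mice, a 2.52-fold ratio of means, of which Dcn formed the largest part. The median log2FC of the 7 tested members was 1.27, beside -0.0087 over all genes tested, but Lum reached the level of the filter in 2 WT mice and in 4 Ucp1Δ/Δ mice, so it entered the test through the group in which it was high. Scaling by total counts alone moved the median of all genes to 0.13, the log2FC of the members moved up with it, and 1478 genes were then called higher and 404 lower, beside 1191 and 681.

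**Figure D1:**
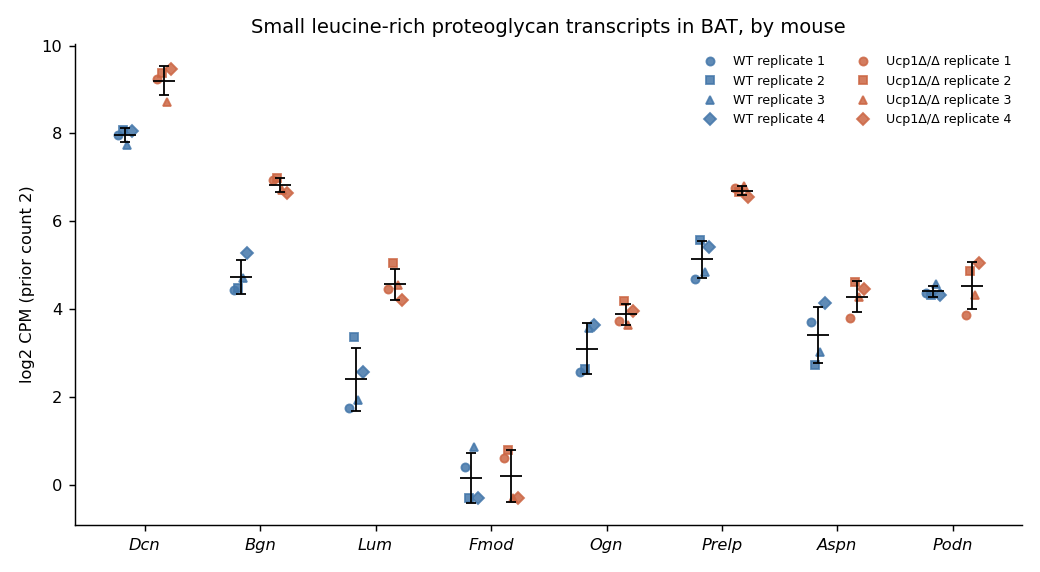
Level of each of the 8 proteoglycan transcripts in each mouse, as log2 CPM with a prior count of 2, WT in blue and Ucp1Δ/Δ in orange, with replicate shown by symbol and horizontal bars with whiskers for the mean ± SD of 4 mice. The 4 Ucp1Δ/Δ mice lie above all WT mice for Dcn, Bgn, Lum and Prelp, whereas the groups overlap for Aspn, Podn and Fmod and nearly touch for Ogn.

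Among the members related to decorin, Dcn was the most abundant and Bgn changed the most. Dcn, the dermatan sulfate proteoglycan of the collagen fibril surface that binds TGF-β, stood at 248, 270, 212 and 265 CPM in WT replicates 1 to 4 and at 606, 662, 421 and 710 CPM in the Ucp1Δ/Δ mice. The groups did not overlap, and the lowest Ucp1Δ/Δ mouse, replicate 3, was still well above the highest WT mouse. Dcn rose by a log2FC of 1.27 (SE 0.19, 95% interval 0.87 to 1.66, edgeR adjusted p = 0.000151).

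Bgn, which carries a pair of chondroitin or dermatan sulfate chains and can signal through Toll-like receptors once released from the matrix, stood at 20.9, 21.5, 25.4 and 38.0 CPM in WT mice and at 122, 125, 104 and 99.2 CPM in Ucp1Δ/Δ mice. All Ucp1Δ/Δ mice were far above WT replicate 4, the highest of the controls, and were close to each other. The log2FC of Bgn was 2.10 (SE 0.21, 95% interval 1.66 to 2.53, edgeR adjusted p = 4.21e-06).

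Aspn, a relative of decorin and biglycan without glycosaminoglycan chains that binds collagen and TGF-β, stood at 12.2, 5.82, 7.35 and 16.7 CPM in WT mice and at 13.1, 23.6, 18.4 and 21.03 CPM in Ucp1Δ/Δ mice. The groups overlapped, since WT replicate 4 was above Ucp1Δ/Δ replicate 1. The log2FC of 0.88 (SE 0.31, 95% interval 0.24 to 1.53) just missed the threshold over all genes (edgeR adjusted p = 0.0511). Without WT replicate 4 the value was 1.18 and without Ucp1Δ/Δ replicate 1 it was 1.03, and both then passed (edgeR adjusted p = 0.00999 and 0.038). Without any other single mouse Aspn did not pass (edgeR adjusted p = 0.0684 to 0.161).

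Lum and Prelp, from the branch of the family related to fibromodulin, both rose. Lum, a keratan sulfate proteoglycan known for the even spacing of collagen fibrils in the cornea, had 5, 21, 9 and 10 counts in WT mice, or 2.55, 9.41, 3.01 and 5.07 CPM, and 21.2, 32.0, 22.6 and 17.6 CPM in Ucp1Δ/Δ mice. WT replicate 2 was the highest control and remained below every Ucp1Δ/Δ mouse. The log2FC was 2.23 (SE 0.34, 95% interval 1.51 to 2.96, edgeR adjusted p = 0.000224), the largest among the members and with the widest interval.

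Prelp, which anchors basement membranes to the underlying collagen, stood at 25.0, 46.6, 27.7 and 42.0 CPM in WT mice and at 108, 101, 110 and 93.6 CPM in Ucp1Δ/Δ mice. The Ucp1Δ/Δ mice were nearly level with each other, and the WT mice split into replicates 2 and 4 above replicates 1 and 3. Prelp rose by a log2FC of 1.55 (SE 0.20, 95% interval 1.11 to 1.98, edgeR adjusted p = 6.09e-05).

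Fmod, the keratan sulfate proteoglycan of tendon and cartilage, had 1, 0, 3 and 0 counts in WT mice and 2, 3, 0 and 0 counts in Ucp1Δ/Δ mice. No mouse had more than 3 counts, so a difference was not detectable at this depth, and no fold change is given.

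Ogn and Podn, which belong to separate branches of the family, showed the smallest differences. Ogn, also called mimecan, stood at 5.10, 5.38, 11.0 and 11.7 CPM in WT mice and at 12.4, 17.4, 11.7 and 14.6 CPM in Ucp1Δ/Δ mice. The groups were apart by a hair, with 11.65 CPM in WT replicate 4 and 11.70 CPM in Ucp1Δ/Δ replicate 3. Its log2FC of 0.74 (SE 0.29, 95% interval 0.12 to 1.37) did not pass over all genes (edgeR adjusted p = 0.0878), and it was 0.91 and passed without WT replicate 4 (edgeR adjusted p = 0.0466). Without any other single mouse Ogn did not pass (edgeR adjusted p = 0.0723 to 0.236).

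Podn, a matrix protein known to restrain smooth muscle cell growth, stood at 19.9, 19.3, 23.0 and 19.2 CPM in WT mice and at 13.8, 28.3, 19.2 and 32.2 CPM in Ucp1Δ/Δ mice. The Ucp1Δ/Δ mice spread to both sides of the narrow WT range. The log2FC was 0.19 (SE 0.25, edgeR adjusted p = 0.639), and its 95% interval of -0.34 to 0.72 lies below the intervals of Dcn, Bgn, Lum and Prelp. For 5 members, Ogn included, every Ucp1Δ/Δ mouse was above every WT mouse, as for 14.4% of all genes tested.

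Per kilobase of exon, Dcn led the family in both genotypes. In WT mice it stood at 42.6 ± 4.54 CPM per kb, followed by Prelp at 9.77 ± 2.93, and then by Podn (4.77 ± 0.424), Aspn (4.47 ± 2.10), Bgn (4.34 ± 1.303), Ogn (3.23 ± 1.38) and Lum (2.05 ± 1.28 CPM per kb), where each neighbour in the order overlapped the next. In Ucp1Δ/Δ mice the order was Dcn (103 ± 21.6), Prelp (28.5 ± 2.06) and Bgn (18.5 ± 2.11 CPM per kb), each apart from the next. Lum (9.54 ± 2.52), Aspn (8.09 ± 1.92), Podn (5.48 ± 1.96) and Ogn (5.47 ± 1.01 CPM per kb) then followed with overlapping ranges. Bgn thus moved from the fifth place to the third, and Lum from the seventh to the fourth. The division by exon length assumes reads along the whole transcript, which the sources used here do not state.

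**Figure D2:**
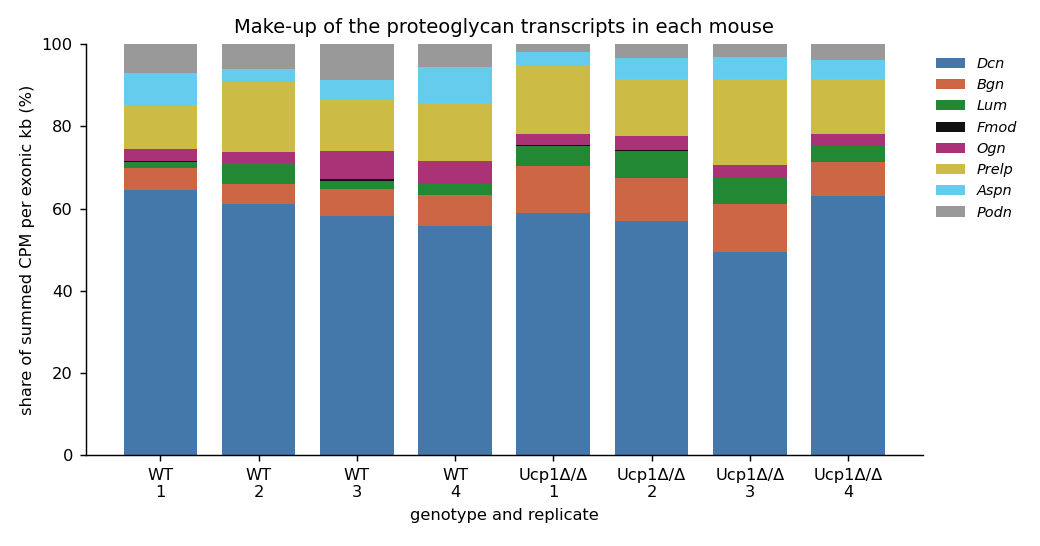
Share of each member in the summed level of the 8 proteoglycans (CPM per exonic kb, in percent) in each of the 4 WT and 4 Ucp1Δ/Δ mice. Dcn takes 49.5% to 64.5% in every mouse, while the band of Bgn is wider and that of Podn is narrower in all 4 Ucp1Δ/Δ mice than in any WT mouse.

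As the bars of the members' make-up show, Dcn kept a similar share of the summed level per kb, 59.9% ± 3.81 in WT and 57.1% ± 5.67 in Ucp1Δ/Δ mice. The share of Bgn went from 6.04% ± 1.36 to 10.5% ± 1.495 and that of Podn from 6.80% ± 1.39 to 3.04% ± 0.874, both without overlap between the groups (SD, n = 4). Prelp held 13.5% ± 2.81 and 16.3% ± 3.41, with overlap.

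Whether 2 members changed by different amounts was asked within each mouse, from the log2 ratio of their CPM. This ratio depends on library scaling only through the prior count, which weighs most for members with few counts. Of the 21 pairs of tested members, 7 had ratios that did not overlap between the genotypes. The share of such pairs among all pairs of tested genes was not measured. Podn was in 4 of the 7 pairs, as the lower partner, and these share its values, so they are not separate results. The ratios of Podn shifted by 1.12 against Dcn, 1.97 against Bgn, 2.04 against Lum and 1.44 against Prelp, in favour of the partner. Bgn gained 1.32 on Ogn, 1.21 on Aspn and 0.52 on Prelp. Each of the 7 reached p = 0.0286 in a two-sided exact permutation test, the smallest that 4 against 4 mice allow. Adjusted over the 21 pairs this is 0.0857, so that 0 pairs passed. With 7 of 21 pairs at that smallest p no pair could pass, so the adjusted test could not decide whether these ratios differed. Of Dcn and Bgn themselves, the log2 ratio went from 3.23 ± 0.396 to 2.38 ± 0.342 with overlap (exact permutation p = 0.0571, adjusted 0.133, n = 4 each).

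The collagens that these proteoglycans coat also rose. Of 11 tested fibrillar and associated collagen genes, 10 were higher and 0 lower (0 lower also at an unadjusted p below 0.05 and with DESeq2 or limma voom, as for the core proteins, proteases and stromal markers that follow), with a median log2FC of 2.07. Like Lum, 2 of the 11 (both higher) reached the level of the filter in all 4 Ucp1Δ/Δ mice and in fewer than 4 WT mice. Such genes entered the test through the Ucp1Δ/Δ mice, which favours genes that are high there. This count and those of the lists that follow therefore only describe the tested genes. Col3a1 rose from 56.4 ± 23.1 to 376 ± 157 CPM (log2FC 2.74, SE 0.30, edgeR adjusted p = 1.19e-05). Col1a1, of the main fibrillar collagen, rose from 32.6 ± 6.68 to 170 ± 60.0 CPM (2.39, SE 0.25, edgeR adjusted p = 6.53e-06). Col5a1 (2.19), which starts fibril assembly, and Col6a3 (2.45), of the beaded filaments that decorin and biglycan bind, were among the others. Col14a1, named after its values were seen, was the tested gene that did not pass (log2FC 0.95, edgeR adjusted p = 0.193).

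**Figure D3:**
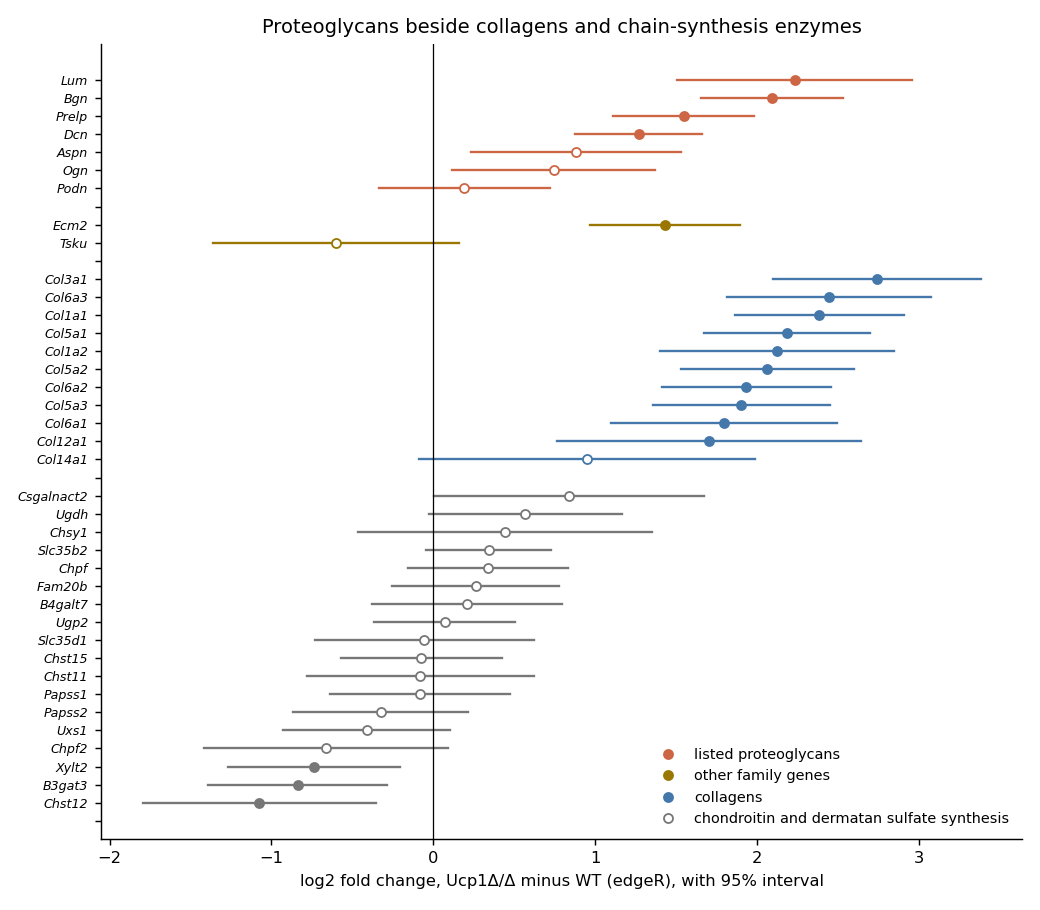
Log2 fold change between Ucp1Δ/Δ and WT mice with its 95% interval (edgeR, 4 mice per genotype) for the 7 tested proteoglycans, 2 further family genes, 11 collagens and 18 genes of chondroitin and dermatan sulfate synthesis. Filled circles have an adjusted p below 0.05, and 10 of the 11 collagens and 4 of the 7 proteoglycans are filled to the right of 0, whereas the enzymes of chain synthesis lie on both sides of 0, 3 of them filled to the left.

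The ratio of proteoglycan to collagen transcripts was measured in each mouse against the summed Col1a1, Col1a2 and Col3a1, which stood at 171 ± 63.6 CPM in WT and 903 ± 381 CPM in Ucp1Δ/Δ mice. Relative to this sum, Dcn was lower by a log2 difference of -1.13, Ogn of -1.60, Aspn of -1.50 and Podn of -2.25, each without overlap between the groups. Each reached p = 0.0286 in the two-sided exact permutation test, and 0.05 after adjustment over the 7 ratios, which is not below the threshold. With 4 of the 7 ratios at the smallest possible p, none could fall below the threshold. A lower ratio was the rule in this tissue, as 88.4% of all genes tested had a lower ratio to the same collagens in every Ucp1Δ/Δ mouse. Bgn (-0.28, SE 0.29), Lum (-0.21, SE 0.45) and Prelp (-0.81, SE 0.39) overlapped between the groups, and their exact permutation p-values were 0.371, 0.8 and 0.114.

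The members were also set against a sum of 5 stromal markers. The summed level of Pdgfra, Pdgfrb, Cd34, Ly6a and Dpt went from 94.0 ± 6.57 to 220 ± 53.8 CPM. These 5 did not rise alike, with log2FC from 0.78 (Ly6a) to 1.66 (Pdgfra). Over the tested stromal markers log2FC went from 0.04 (Pi16) to 3.11 (Mfap5), so the ratios hold for this sum only. Relative to this sum Bgn was higher by a log2 difference of 0.89 and Lum by 0.97 in every Ucp1Δ/Δ mouse, as for 2.62% of all genes tested. Podn was lower by -1.08 in every Ucp1Δ/Δ mouse, as for 66.2% of all genes tested. Each had an exact permutation p of 0.0286, adjusted over the 7 ratios 0.0667, so none passed. With 3 of the 7 ratios at the smallest possible p, none could pass. The mean log2 ratio of Dcn was 1.41 ± 0.0849 in WT and 1.45 ± 0.41 in Ucp1Δ/Δ mice (difference 0.04, SE 0.21, exact permutation p = 0.914), but the Ucp1Δ/Δ mice, at 1.53, 1.15, 1.12 and 1.996, all lay outside the WT range of 1.33 to 1.51, on both sides of it. Prelp (0.37), Ogn (-0.42) and Aspn (-0.32) overlapped.

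**Figure D4:**
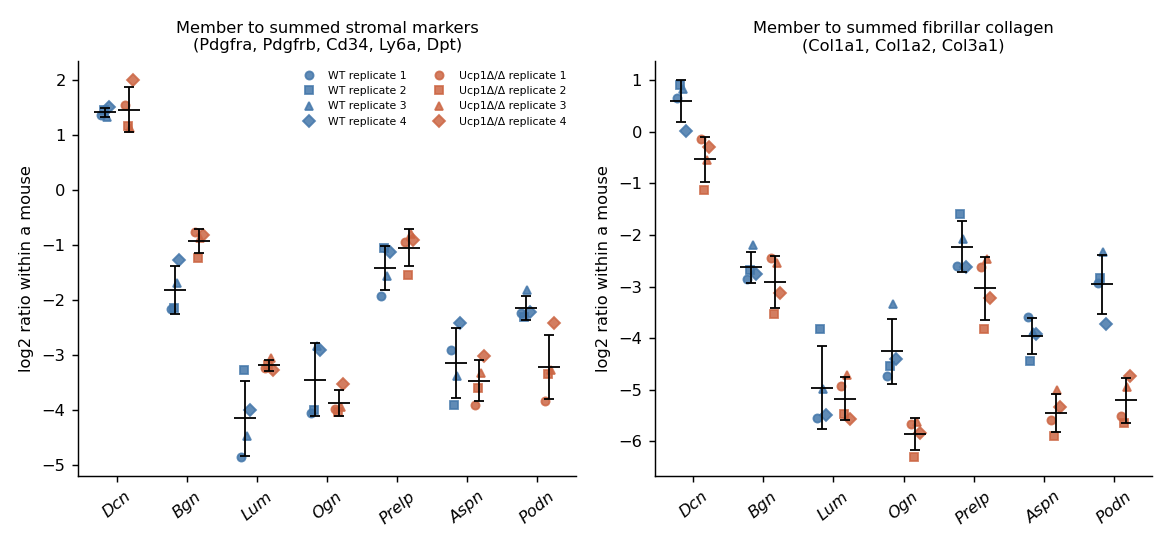
Log2 ratio, within each mouse, of each tested proteoglycan to the summed CPM of 5 stromal markers (left) and of 3 fibrillar collagen genes (right), with mean ± SD of 4 mice per genotype. Against stromal markers Bgn and Lum are higher and Podn is lower in all Ucp1Δ/Δ mice, and against collagen Dcn, Ogn, Aspn and Podn are lower in all of them.

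The remaining genes of the family were near or below the limit of detection, except for a pair. Ecm2, a leucine-rich matrix protein encoded beside Aspn, stood at 11.2, 12.5, 8.01 and 9.12 CPM in WT and at 24.4, 32.4, 27.6 and 25.3 CPM in Ucp1Δ/Δ mice. Its groups were clearly apart, with a log2FC of 1.43 (SE 0.22, edgeR adjusted p = 0.000207). Tsku, a secreted inhibitor of TGF-β and Wnt signals, went from 6.39 ± 2.76 to 4.37 ± 0.890 CPM and did not pass (log2FC -0.60, edgeR adjusted p = 0.264). The others were not tested, namely Kera and Epyc with 0 counts in all mice and Omd, Optc, Chad, Nyx and Podnl1 with at most 6 counts over the 4 mice of a genotype. In the cluster on chromosome 10, Dcn and Lum rose beside the undetected Kera and Epyc. In that on chromosome 13 Ecm2 passed, and Aspn and Ogn, with log2FC also above 0, did not. The intervals of the log2FC overlapped, with 0.97 to 1.89 for Ecm2, 0.24 to 1.53 for Aspn and 0.12 to 1.37 for Ogn. Whether Ecm2 changed more than Aspn or Ogn was not tested.

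Of 12 other proteoglycan core proteins tested, 6 were higher and 0 lower, with a median log2FC of 0.66. Of these, 5, all higher, entered the test through the Ucp1Δ/Δ mice, Cd44, Gpc1, Sdc3 and Col18a1 among them, and 1 of the other 7 was higher (median 0.45). A further 15 listed genes were not tested. Cd44, the hyaluronan receptor that can carry chondroitin sulfate, rose from 1.95 ± 0.670 to 23.0 ± 7.08 CPM (log2FC 3.59, edgeR adjusted p = 3.45e-06). Gpc1, a glypican tied to the cell membrane by a lipid anchor, rose from 3.67 ± 0.502 to 25.2 ± 7.05 CPM (2.79, edgeR adjusted p = 6.86e-06). Sdc3, a syndecan, rose by 1.87 and Col18a1, a basement membrane collagen with heparan sulfate chains, by 1.74 on the log2 scale.

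The enzymes that build the chains of these core proteins were in part too low to be tested. Of 29 listed genes of chondroitin and dermatan sulfate synthesis, 18 were tested, of which 0 were higher and 3 lower, with a median log2FC of -0.06. Of the 11 not tested, 5 had every Ucp1Δ/Δ mouse above every WT mouse at low counts, all named after their values were seen. Over the 4 mice of each genotype these were Dse (13 counts in WT and 79 in Ucp1Δ/Δ mice), Csgalnact1 (11 and 46), Dsel (23 and 53), Chst7 (2 and 22) and Xylt1 (0 and 13). The share of such genes among all genes not tested was not measured, so this count says nothing particular about the list. When 1 count in a single mouse sufficed for testing, edgeR called 4 genes of the list higher and 1 lower. The 3 were B3gat3, which completes the linker between core protein and chain (-0.84, edgeR adjusted p = 0.0313), Chst12, a sulfotransferase (-1.07, edgeR adjusted p = 0.0345), and Xylt2, which adds the first sugar (-0.74, edgeR adjusted p = 0.0471). At an unadjusted p below 0.05, 1 gene was higher and 3 lower in edgeR, and DESeq2 with its own filter called 2 of the list higher and 1 lower. The calls were lost when single mice were left out, Xylt2 with any of the 8. Of 7 tested genes of keratan sulfate synthesis and tyrosine sulfation, 0 were higher and 0 lower in edgeR, with a median of -0.06, and 1 gene lay on each side at an unadjusted p below 0.05, while DESeq2 and limma voom called 0.

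Among proteases that trim or degrade the family and their helpers, 8 of 10 tested genes were higher and 0 lower, with a median log2FC of 1.55. Of the 10, 6 entered the test through the Ucp1Δ/Δ mice, 5 of them called higher, Mmp12 and Mmp2 included, and 8 further listed genes were not tested. Pcolce, an enhancer of procollagen processing that is not itself a protease, rose from 9.96 ± 3.85 to 207 ± 40.4 CPM (log2FC 4.35, edgeR adjusted p = 1.37e-07). Mmp12, the metalloelastase of macrophages, had 2 counts over the 4 WT mice and 468 over the 4 Ucp1Δ/Δ mice. Mmp2 (2.40) and Adamts5 (1.68), both able to cleave proteoglycan core proteins, followed.

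Of 15 tested genes of receptors, growth factors and complement proteins that bind members of the family, 7 were higher and 1 lower, with a median log2FC of 0.79. Of the 15, 4 entered the test through the Ucp1Δ/Δ mice, of which 2 were higher. Among the 7, the complement genes C1qa, C1qb and C1qc, whose products decorin and biglycan bind, led with log2FC of 3.22, 3.19 and 3.11. They are made mostly by macrophages, and C1qa also stands in the list of macrophage markers. Lrp1, an endocytic receptor of decorin, rose from 50.1 ± 8.46 to 95.8 ± 15.4 CPM (0.94, edgeR adjusted p = 0.00162). Met, a receptor tyrosine kinase that decorin can bind, fell from 34.7 ± 4.10 to 21.5 ± 4.73 CPM (-0.70, edgeR adjusted p = 0.0209), a call that was lost without WT replicate 3, Ucp1Δ/Δ replicate 1 or Ucp1Δ/Δ replicate 2.

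Most tested markers of fibroblasts and macrophages were higher, beside 13.3% of all genes tested. Of 14 tested fibroblast and stromal markers, 12 were higher and 0 lower, and 6 of the 14, of which 5 were higher, entered the test through the Ucp1Δ/Δ mice. Col1a1 and Col1a2, among the 12, also stand in the list of collagens, so the 2 lists are not separate results. The sum of the stromal list, in which Gpx3 weighed most, ranged from 3705 to 5824 CPM in WT and from 7049 to 8410 CPM in Ucp1Δ/Δ mice. Without Gpx3 it ranged from 211 to 312 and from 650 to 1348 CPM. This includes Col1a1 and Col1a2, with means of 32.6 and 82.4 CPM in WT and 170 and 358 CPM in Ucp1Δ/Δ mice. Of 10 macrophage markers 8 were tested and called higher, 5 of which entered the test through the Ucp1Δ/Δ mice. Cd14, with 23 counts over the WT and 41 over the Ucp1Δ/Δ mice and overlap between the groups, and Fcgr1, with 8 and 52 counts, were not tested. The macrophage list had sums of 85.5 to 127 CPM in WT and 831 to 1361 CPM in Ucp1Δ/Δ mice, led by Lyz2. The part of these cell types in the levels of the proteoglycans was not tested.

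Endothelial sums ranged from 218 to 252 CPM in WT and from 273 to 326 CPM in Ucp1Δ/Δ mice, led by Egfl7, and mural sums from 211 to 310 and from 312 to 338 CPM, led by Rgs5. In each list 1 of 7 tested genes was higher, Tie1 and Acta2, both named after their values were seen. This is near the share over all tested genes, of which 13.3% were called higher and 7.63% lower. Of 10 brown adipocyte markers 1 was higher (Dio2) and 4 were lower (Cidea, Adipoq, Elovl3 and Plin1, all likewise named afterwards). Dio2 entered the test through the Ucp1Δ/Δ mice. At an unadjusted p below 0.05 in edgeR 6 were lower, as with DESeq2, and limma voom called 4 lower. The sum of these markers, led by Fabp4, ranged from 14406 to 24508 CPM in WT and from 10625 to 15655 CPM in Ucp1Δ/Δ mice. Schwann cell markers had 1 of 3 tested genes higher (Pmp22, also the gene that weighed most), with sums of 48.4 to 78.4 CPM in WT and 80.3 to 131 CPM in Ucp1Δ/Δ mice. Mesothelial markers (1 tested, led by Lrrn4, 4.34 to 10.2 and 4.36 to 9.01 CPM) and T and B cell markers (1 tested, led by Trbc2, 2.67 to 7.17 and 6.44 to 11.3 CPM) had no gene called. Tendon markers were near 0, with 0 of 8 tested and Comp, Mkx, Cilp2 and Kera at 0 counts in all mice.

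Skeletal muscle markers varied between mice of either genotype. Their sum, led by Myh4, was 1353, 95.4, 17.7 and 643 CPM in WT and 277, 1865, 55.6 and 822 CPM in Ucp1Δ/Δ mice, so that 4 mice exceeded 500 CPM and the genotypes overlapped. None of the 8 markers passed in edgeR, DESeq2 or limma voom, and 0 had an unadjusted p below 0.05 in edgeR. The 4 members stayed higher among the other 4 mice, 2 of each genotype, with log2FC of 1.11 for Dcn, 2.28 for Bgn, 1.89 for Lum and 1.58 for Prelp (edgeR adjusted p = 0.0104, 0.000236, 0.0155 and 0.00333). Podn changed sign there, to -0.36 (edgeR adjusted p = 0.554).

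**Figure D5:**
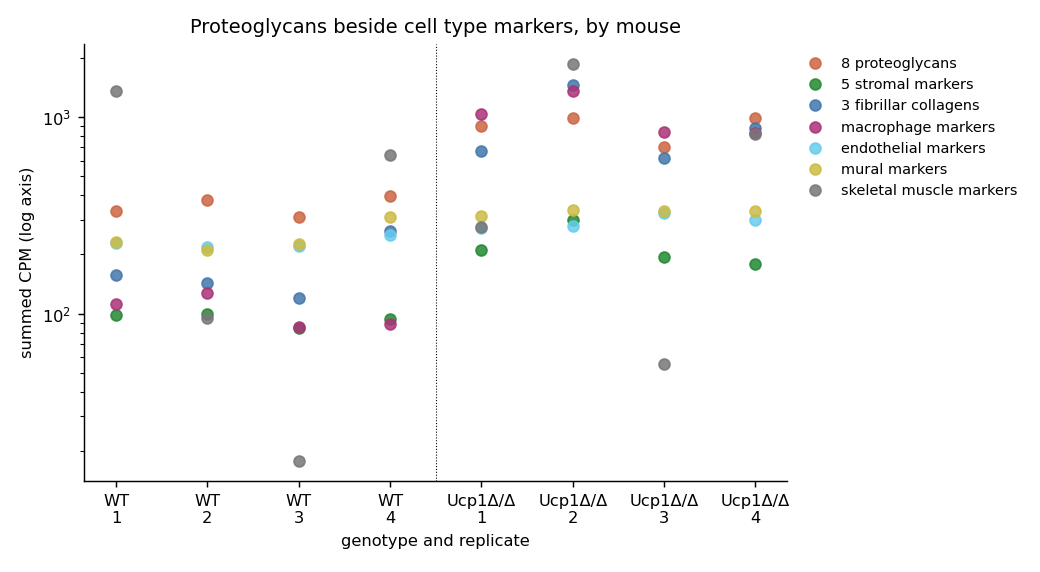
Summed CPM (log axis) of the 8 proteoglycans, of 5 stromal markers, of 3 fibrillar collagens and of the macrophage, endothelial, mural and skeletal muscle marker lists in each of the 8 mice, 1 point per mouse and list. The proteoglycan sum is 310 to 398 CPM in WT and 708 to 990 CPM in Ucp1Δ/Δ mice, and macrophage markers differ more, whereas skeletal muscle markers differ between mice within each genotype.

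Within genotypes the members varied in different ways. After the mean of each genotype was subtracted, Lum and Prelp had a Pearson r of 0.856 over the 8 mice and Bgn and Ogn of 0.755, and the other pairs lay between -0.32 and 0.49. Among 6428 genes with a mean of at least 10 CPM, those most like Dcn in this residual pattern were Gpcpd1 (r = 0.974), Cobll1 (0.969) and Gpc1 (0.962), of which Gpc1 was itself higher in Ucp1Δ/Δ mice. Those most like Bgn were Eya2 (0.963), Cyth4 (0.940) and Wbp11 (0.940), and the nearest gene was Lztr1 for Lum (0.979), Ube2d3 for Prelp (0.958), Ythdc1 for Aspn (0.982), Cpd for Ogn (0.962) and Celf1 for Podn (0.964). With 8 mice and so many genes searched, all from the same libraries, such values describe these samples only.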

How the data were processed

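BAT of 4 WT and 4 Ucp1Δ/Δ mice was profiled by bulk RNA-seq (NEGEDIA Digital mRNA-seq, 50 ng of total RNA, single-end reads of 75 cycles). Per the study's methods the authors trimmed with bbduk, aligned to mm10 with STAR and counted per gene with HTseq-counts, whereas the submitters' processing notes name Trimmomatic, HISAT2 and DESeq2 with GRCm38/mm10. The authors deposited raw counts per Ensembl gene, used for all main results. They also deposited log2 values, made by dividing each mouse's counts by a factor of its own and adding 1 before the log, which served for 1 alternative. Strand setting and annotation release are not given in the sources used here. Trimming, aligner and strand setting could move the counts of genes that overlap others and could not be varied.

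Symbols came from GENCODE M21 (30934 of 31053 identifiers; 222 of 223 genes of the lists matched). Genes were filtered with filterByExpr, scaled by TMM and tested for genotype in edgeR 4.0.16 (R 4.3.3) by its quasi-likelihood F test, adjusted after Benjamini-Hochberg (threshold 0.05); limma 3.58.1 and DESeq2 1.42.0 served for alternatives. Each SE was derived as the absolute log2FC divided by the root of F. Ratios used log2 CPM with a prior count of 2 for the members and no prior count for the summed collagens and stromal markers. They were tested by two-sided exact permutation (numpy 2.4.6). The fit was tested on simulated data. With 2017697 to 3115956 counts per mouse, members with few counts have wide intervals.

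Named were all members, Pnpla2, the other genes of the family and, per list, up to 4 genes per direction with the smallest adjusted p. Of cell type lists, the sum and the gene weighing most were given. Per member, the 3 genes most alike were ranked. Members and lists were chosen with earlier results of these data known. Alternatives covered scaling, filters, tools, the replicate block, prior counts, single mice left out and, chosen after seeing the data, skeletal muscle markers. Columns of sample attributes held no measurement.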

Additional observations from a re-analysis of the deposited data

Results flagged for a closer look

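In 104 groups of 4 mice examined for a mouse apart from the rest (the gap to the nearest mouse over the whole range, Dixon's measure), 9 were found, where about 5.2 are expected by chance at 1 in 20. Of these, 5 rest on at most 3 counts against 0 in the other mice of the group and have a gap of 1 (Omd in WT replicate 2, Optc in WT replicate 3 and Ucp1Δ/Δ replicate 2, Chad in Ucp1Δ/Δ replicate 1 and Nyx in WT replicate 3). Col5a1 was highest in Ucp1Δ/Δ replicate 2, at 5.12 log2 CPM against at most 4.88 in the other 3 (gap 0.936), the mouse with the highest skeletal muscle markers, whose part in this was not tested.

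The ratios of members gave the other 3. The log2 ratio of Dcn to Podn was 5.38 in Ucp1Δ/Δ replicate 1 and at most 4.51 in the other Ucp1Δ/Δ mice (gap 0.888). That of Bgn to Podn was 0.95 in WT replicate 4 and at most 0.15 in the other WT mice (gap 0.906), and that of Bgn to Prelp was -1.09 in WT replicate 2 and at least -0.25 in the others (gap 0.870). All were kept in the tests.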

How the results depend on the processing

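Dcn, Bgn, Lum and Prelp kept their direction and passed the test under every alternative in which they were tested, with Lum not tested at a minimum of 10 counts in every mouse. Their log2FC ranged over single mice left out from 1.18 to 1.42, 1.99 to 2.30, 2.004 to 2.73 and 1.41 to 1.70. The count of members higher was 4 to 6 and that of members lower 0 throughout. Aspn passed at 1.03 with total counts only, at 0.86 when 1 count in a single mouse sufficed, at 0.96 when each mouse needed 10 counts and at 0.96 with limma voom, and ranged from 0.68 to 1.18 over mice left out. Ogn passed at 0.89 with total counts only and ranged from 0.57 to 0.93. Podn ranged from 0.0098 to 0.39 over mice left out and reversed to -0.36 without the mice over 500 CPM of skeletal muscle markers, an alternative that tests fewer mice.

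Over all genes, 1191 were higher and 681 lower. The calls were 746 and 449 when each mouse needed 10 counts, which tests fewer genes, and 760 and 265 without the muscle-rich mice, which tests fewer mice. With total counts only they were 1478 and 404, where the cause was not tested, and when 1 count in a single mouse sufficed, which tests more genes, 1630 and 883, the most of either in any setting. Over mice left out the calls ranged from 945 to 1304 higher and from 400 to 851 lower, the fewest lower without Ucp1Δ/Δ replicate 2. Same-numbered mice did not deviate together throughout (correlations -0.087, -0.196, 0.304 and 0.241). With so few mice these values cannot exclude a pairing, which the labels do not state. The replicate block left 4 members higher, and limma on the ratios with that replicate block called 7 pairs, 4 collagen ratios and 3 stromal ratios where the exact test called 0. With 1 mouse left out the exact test cannot go below p = 0.0571. B3gat3, Chst12, Xylt2, Met and, without the muscle-rich mice, Col18a1 each lost their calls in at least 1 setting, and of 22 other named genes with a fit 17 never did.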
